A study of Mus musculus with 2 samples.

Results

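The epidermal differentiation complex is a run of neighbouring genes that encode the building blocks of the outer skin barrier. Its members were chosen by symbol: every gene whose symbol starts with Lce, Sprr or S100a, together with Lor, Flg, Flg2, Hrnr, Rptn, Ivl, Crnn, Crct1, Kprp and Tchhl1. This gave 60 of the 32285 genes counted, all on mouse chromosome 3, and 47 of them had at least 20 UMIs (unique molecular identifiers, 1 per captured transcript) over both libraries and were used. The 47 are 13 of 21 Lce genes, 12 of 15 Sprr genes, 13 of 14 S100a genes and 9 of 10 single genes. Just under the minimum lay Lce1h with 6 UMIs in the control and 11 in the induced library, Lce3f with 0 and 17, and Lce3e with 11 and 5. Just above it lay Sprr4 with 18 and 7 UMIs and Lce1l with 8 and 42.

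Single cells from the dorsal skin of mice at postnatal day 3 were profiled by droplet sequencing of transcript 3′ ends. Epidermis and dermis, the latter holding the hair follicles, were dissociated apart and recombined as 30% epidermal and 70% dermal cells. There was 1 library per group, with Dox as the treatment in both. The genotype was Wildtype in the control library and miR-200b induced in the other. The labels give neither the construct, promoter or cell type behind the induction nor the number of mice per library. With 1 library per group there is no replicate and no test. Every interval below is an exact 95% interval that covers counting error only, and each difference compares these libraries.

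In stratified epidermis, basal cells leave the basement membrane and pass through spinous and granular layers before they die as flat cornified cells. Loricrin, involucrin, the small proline-rich proteins (Sprr) and the late cornified envelope proteins (Lce) are cross-linked under the plasma membrane into the cornified envelope, while filaggrin and its relatives bundle keratin filaments. The S100 proteins of the complex are small calcium-binding proteins, several of which are made in stressed or healing skin. MicroRNA-200b is an epithelial microRNA that represses transcripts carrying matches to its seed.

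The libraries held 100409201 control and 119705137 induced UMIs in 9072 and 9114 barcodes. After the filters of at least 1000 UMIs, at least 500 genes and under 15% mitochondrial UMIs, and after removal of likely doublets, 4816 and 4890 cells were kept, 3945 and 4103 of them epithelial. The epithelial medians were 16106 control and 21073 induced UMIs per cell. The libraries shared 74 barcodes, 7 among kept cells. Clusters were built without the members and named from marker genes, so a name such as granular stands for granular-like throughout. The granular class (23 control and 130 induced cells, median depths 70378 and 56933.5 UMIs) had 17 of its 20 markers raised in the control and 18 of 20 in the induced library. Basal cells numbered 749 and 1275, with 8 and 6 of 11 markers raised, and spinous cells 105 and 215, with 10 and 9 of 12. The libraries filled some basal clusters unequally: E7 held 256 control and 33 induced cells, E0 95 and 541, and E20 24 and 150. Cells outside the filters held 5.28% of the members' UMIs in the control and 3.58% in the induced library.

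Promoters are shown first, because most of the Sprr and single-gene promoters searched share a short word. The word searched was TGANTCA on both strands, the AP-1 motif bound by Fos and Jun dimers, in the 300 bases from 250 before to 50 after each RefSeq start (GRCm38.p6). It was present in 9 of 11 Sprr promoters, 6 of 7 promoters of single genes (all but Hrnr), 1 of 10 S100a promoters and 0 of 12 Lce promoters. Of all 27025 promoters, 7.93% held it, so its absence from 12 Lce promoters is not read as a trait of the Lce genes. RefSeq promoters could be matched to 40 of the 47 members, and Kprp and Crct1 were among those without one. Sprr2d and Sprr2e carried the same 27 bases at the same distance from their starts, so these matches are not separate observations. Sprr2a3 had no match in its window. The windows below are given 5′ to 3′ on the strand of the gene, with the match in capitals.
Sprr1b, chr3:92438874-92438900, minus strand, 111 bases upstream: gcacctaggaTGAATCAtgtctgacag
Sprr1a, chr3:92485981-92486007, minus strand, 116 bases upstream: gggaggagggTGAGTCAtaggtgactg
Sprr2b, chr3:92316500-92316526, plus strand, 195 bases upstream: aaaggactctTGAGTCAcaagactcaa
Sprr2d, chr3:92338937-92338963, plus strand, 193 bases upstream: gagtgctcacTGAGTCAcaggtctcaa
Lor, chr3:92083174-92083200, minus strand, 48 bases upstream: gatcaatagaTGAGTCAgagcaggaca
Ivl, chr3:92573835-92573861, minus strand, 116 bases upstream: agttatcagaTGACTCAgaaaggaagg
Flg, chr3:93273433-93273459, plus strand, 103 bases upstream: tggttaagaaTGAATCAgaccatccca
Flg2, chr3:93197194-93197220, plus strand, 69 bases upstream: tgattagaaaTGAATCAgcccatccca

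The same windows of Flg and Flg2, both lower in the induced granular cells, and of Sprr1b, higher there, hold the variant TGAATCA of the word, so the word as searched does not separate the members by direction. Further motifs were searched in the same promoters. The TATA box TATAAA was present in 9 of 11 Sprr, 6 of 7 single-gene, 3 of 12 Lce and 3 of 10 S100a promoters, against 14.2% of all. The antioxidant response element core TGACNNNGC was present in 2 Sprr, 1 single-gene, 3 Lce and 1 S100a promoters, against 12.5% of all. The KLF word CCNCNCCC was present in 4 Sprr, 3 single-gene, 0 Lce and 4 S100a promoters, against 49.1%, and the ETS word CCGGAAGT in 0 of the 40, against 4.0%.

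The induced microRNA is shown because its seed decides which transcripts it can pair with. Its mature 3p strand (RefSeq, GRCm38.p6, chr4:156055685-156055706, minus strand), with bases 2 to 8 in capitals, reads as follows.
miR-200b-3p: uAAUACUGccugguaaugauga

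A match to this seed, the word CAGTATT, was present in the 3′ UTRs of 2 of 44 members with an annotated 3′ UTR, Sprr2a3 and Lce1c, which is 4.55% against 15.1% of the 20904 genes with a 3′ UTR. A longer 3′ UTR has more places for the word, and these shares were not adjusted for length. The longest 3′ UTR was 2569 bases for Sprr2a3, 210 for Lce1c and 480 for Flg. The 3′ UTR of Flg did not hold the word, and Flg2 was among the members with no annotated 3′ UTR to search.

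Across the epithelium, some members were found almost wholly in granular cells, some in nearly every class and a few chiefly in the follicle. Granular cells held 94.4% of the control and 93.8% of the induced UMIs of Lor, the main protein of the cornified envelope, although they were 0.583% and 3.17% of the epithelial cells. For Flg the shares were 93.0% and 95.5%, and for Hrnr, a filaggrin relative, 94.3% and 96.2%. S100a6 stood at the other end, with 0.112% and 0.690% of its UMIs in granular cells and a UMI in 3539 of 3945 control and 3836 of 4103 induced epithelial cells. S100a11, an envelope substrate made in all layers, was likewise found in 3831 and 3993 cells. Sprr1a was chiefly a gene of the upper follicle, at 1230.4 control and 1727 induced CPM (counts-per-million, the UMIs of a gene scaled to the total of its cells) there against 255 and 282 in granular cells.

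**Figure D1:**
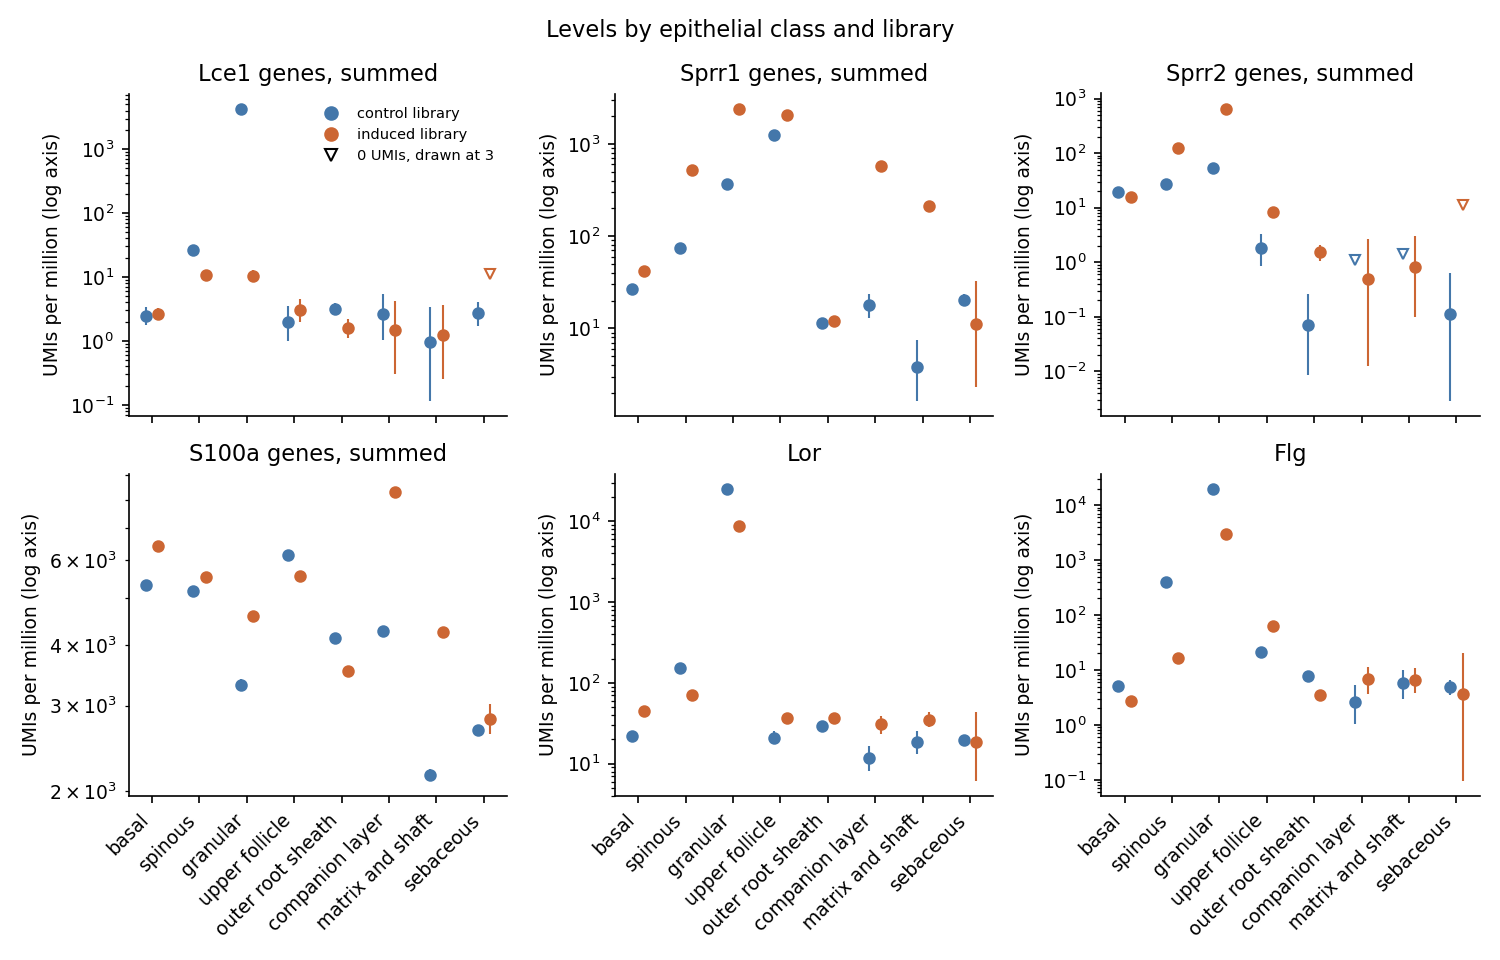
CPM (log axis) of summed subfamilies, Lor and Flg in 8 epithelial classes, control in blue and induced in orange. Points are 1 library each with exact 95% counting intervals, and open triangles mark 0 UMIs drawn at the level of 3. In granular cells Lce1 was 4266 CPM in the control and 10.5 in the induced library, while Sprr1 and Sprr2 were higher in the induced library in both spinous and granular cells.

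Over all epithelial cells, 9 of the 47 members were at least 2-fold higher in the induced library and 8 were at least 2-fold lower, counted on CPM with 5 added and with a counting interval that excludes equality. Of all 15937 genes with 20 UMIs, 1.52% were higher and 2.44% lower by the same measure. The 9 were S100a3, S100a4, S100a8, S100a9, Sprr1b, Sprr2b, Sprr2d, Ivl and Hrnr. The 8 were Lce1a1, Lce1a2, Lce1b, Lce1c, Lce1d, Lce1m, Flg and Flg2. The median gene differed by -0.11 on the log2 scale. By subfamily, the summed Sprr genes were 131 and 517 CPM in the control and the induced library (log2 ratio 1.98, 1.95 to 2.01). The summed S100a genes were 4510 and 5257 CPM, with a log2 ratio of 0.22 (0.21 to 0.23). The summed Lce genes were 104 and 6.96 CPM (log2 ratio -3.90, -4.02 to -3.79). With the 6 control cells highest in Lor left out, described below, the Lce direction turned and no member was called lower. The single genes summed to 1319 and 1233 CPM (log2 ratio -0.10, -0.11 to -0.09), but this direction turned under other settings, to 0.19 with doublets kept and 0.31 as the mean of per-cell CPM. Without Lor, the other single genes summed to 710.03 and 525 CPM.

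Sprr1b, a cross-linked precursor of the envelope, had the largest log2 ratio of CPM plus 5 among the members over all epithelial cells. It had 477 UMIs in 68 control cells and 23694 in 856 induced cells, or 6.23 and 242 CPM, which is 38.9-fold higher (35.5 to 42.7) in the induced library. The UMIs were spread over many cells: the cells with the most of it had to be added up to 8 in the control and 47 in the induced library to reach 50% of the total. It was higher in the induced library in each layer above the basal one. In spinous cells it stood at 15.96 and 442 CPM, and in granular cells at 116 (101 to 134) and 2119 (2086 to 2153) CPM. A UMI of it was present in 10 of 23 control and 125 of 130 induced granular cells.

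The share of cells with a Sprr1b UMI was also compared after each cell was thinned to 2000 UMIs, with dermal fibroblast-like cells as a measure of free RNA. In granular cells it was 9.09% (1.12 to 29.2) in the control and 83.1% (75.5 to 89.1) in the induced library, and in spinous cells 2.86% (0.593 to 8.12) and 33.5% (27.2 to 40.2). Fibroblast-like cells (median depths 9542 and 6183 UMIs) gave 0.191% and 3.25%. In basal cells the share was 0.134% and 2.20%, at or below that of the fibroblast-like cells, so the basal level of 2.36 and 16.5 CPM is not read as expression. The part of free RNA in the basal difference was not tested.

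The neighbouring Sprr1a did not follow Sprr1b. It was 117 CPM in the control and 206 in the induced library over all epithelial cells (log2 ratio 0.81), and in granular cells 255 (232 to 280) and 282 (270 to 294) CPM. The intervals in granular cells overlapped, and the log2 ratio there was 0.14 (-0.01 to 0.29).

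The Sprr2 genes, a row of small envelope precursors between Lor and Sprr1b, together had 7.21 CPM in the control and 69.2 in the induced library. Sprr2d had 5 control and 2777 induced UMIs, or 0.0653 and 28.4 CPM, in 2 and 193 cells. Sprr2b had 0 control and 1756 induced UMIs, at least 458-fold higher against a floor of 3 UMIs in the control. In granular cells it had 0 and 1578 UMIs, at least 124-fold higher. These UMIs were uneven: 3 of the 27 induced granular cells with a Sprr2b UMI held 73.5% of them, and 3 cells held 59.5% of all granular Sprr2 UMIs of that library. The share of thinned granular cells with a Sprr2 UMI was 13.6% (2.91 to 34.9) in the control and 24.6% (17.5 to 32.9) in the induced library, and these intervals overlapped.

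Sprr2h was 1.03 and 4.51 CPM over all epithelial cells, and 36.3 and 32.3 CPM in granular cells, where 87.3% of the 63 control UMIs lay in 3 cells. It was called higher in spinous cells, at 1.58 and 15.2 CPM, and in the range of Lor used below, at 6.21 and 36.5 CPM. Sprr2j-ps, a pseudogene by its name, had 5 and 297 UMIs, in 4 and 88 cells. Sprr2a3, the copy without the AP-1 word, was 5.91 and 10.0 CPM over all epithelial cells and 14.4 and 14.5 CPM in granular cells. Its 3′ sequence shares 63.3% of its 60-base words with Sprr2a1, Sprr2a2 and Sprr2b, so its own count may be uncertain. Sprr2d and Sprr2b were thus higher in the induced granular cells, while Sprr2a3 was not called there.

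Among the S100a genes with at least 100 UMIs, the highest log2 ratios over all epithelial cells were those of S100a8 and S100a9. They encode the subunits of calprotectin, an antimicrobial protein complex of neutrophils and stressed keratinocytes. S100a8 was 4.23 CPM in the control and 41.2 in the induced library over all epithelial cells, and S100a9 was 9.01 and 56.4 CPM. In granular cells S100a8 was 68.5 and 438 CPM, and S100a9 249 and 545 CPM. Few cells carried them: 3 cells held 80.5% of the induced granular S100a8 UMIs, and 23 of 130 induced cells had any. After thinning, 31.8% (13.9 to 54.9) of control and 15.4% (9.66 to 22.8) of induced granular cells had a UMI of either gene, a share that did not follow the CPM. Neutrophil markers summed to 0.576 CPM in the control and 11.8 in the induced granular cells. This is 1 control and 87 induced UMIs. Ly6g, Retnlg, Csf3r, Camp and Ngp, 5 of the 7 markers, were at 0 in both libraries. Cxcr2 was also at 0 in the control, so its 1 UMI was of Il1b, and the 87 were of Cxcr2 and Il1b. Their part in the difference was not tested.

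S100a6, a calcium-binding partner of annexins, was higher in the interfollicular epidermis of the induced library. It was 911 (896 to 926) and 2044 (2029 to 2059) CPM in basal cells, 231 and 540.0 CPM in spinous cells, and 54.1 and 126 CPM in granular cells. After thinning, 4.55% (0.115 to 22.8) of control and 13.1% (7.81 to 20.1) of induced granular cells had a UMI, and these intervals overlapped. In spinous cells the shares were 21.9% (14.4 to 31.0) and 42.8% (36.1 to 49.7). The basal values come from clusters filled unequally, chiefly E7 and E4 in the control and E0 and E4 in the induced library. In the follicle the order varied: the companion layer had 1253 control and 4904 induced CPM, the outer root sheath 1513 and 1103 CPM and the upper follicle 1527 and 976 CPM. Summed over all epithelial cells these differences left 1095 and 1377 CPM, a direction that turned in the mean of per-cell CPM. Fibroblast-like cells, which make S100a6, had 1626 and 3379 CPM, and after thinning 82.8% and 89.4% of them had a UMI.

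Several other S100a genes were not called over all epithelial cells. S100a14 was 1008 and 896 CPM, S100a16 was 591 and 503 CPM, and S100a11 was 1023 and 1340.5 CPM over all epithelial cells. S100a1 was 44.1 and 22.5 CPM and S100a13 was 56.8 and 33.6 CPM, neither at a 2-fold difference of CPM plus 5. S100a10, named here after its values were seen, was 656 and 923 CPM there. It was called higher in granular cells, at 117 and 305 CPM, and not in the range of Lor used below, at 125 and 249 CPM. S100a3, a gene of the hair cuticle that was called higher, was 14.004 and 39.6 CPM, with 791 of 1072 control and 3372 of 3868 induced UMIs in the matrix and shaft class described below. S100a4, also called higher and named here after its values were seen, was 9.01 and 23.5 CPM over all epithelial cells and 2.30 (0.628 to 5.90) and 38.6 (34.2 to 43.3) CPM in granular cells. A UMI of it was present in 3 of 23 and 87 of 130 granular cells, but after thinning in 4.55% (0.115 to 22.8) and 6.92% (3.21 to 12.7), and these intervals overlapped. Fibroblast-like cells, which make S100a4, gave 27.1% and 32.9%.

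The members were also counted by layer. In basal cells 3 of 26 members with 20 UMIs were higher in the induced library (S100a6, S100a9 and Sprr1b, against 1.72% of 13070 genes) and 0 were lower (against 2.18%). After thinning, 1.02% (0.545 to 1.74) of induced basal cells had an S100a9 UMI, against 1.63% (0.445 to 4.11) of induced fibroblast-like cells, and for Sprr1b the shares were 2.20% (1.47 to 3.16) and 3.25% (1.41 to 6.31). Both pairs of intervals overlapped. In spinous cells 10 of 30 members were higher (against 2.91% of 10476 genes): S100a4, S100a6, S100a8, S100a9, Sprr1b, Sprr2b, Sprr2d, Sprr2h, Sprr2j-ps and Ivl. Lor, Flg and Lce1m were lower there (3 of 30, against 2.74%). In granular cells 11 of 38 were higher (against 3.47% of 9083 genes) and 17 lower (against 5.05%). The 17 were all 12 Lce genes with 20 UMIs, Lor, Kprp, Crct1, Flg and Flg2. Without the 6 control cells highest in Lor, described below, 4 members were lower in granular cells.

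The spinous class consisted of 2 clusters, which the libraries filled unequally: E22 (75 control and 88 induced cells) and E24 (30 and 127 cells). Flg in E22 was 4.90 and 3.18 CPM. In E24 it was 925 and 24.5 CPM, with 75.1% of the control UMIs in 3 cells. Lor after thinning was present in 9.52% of control and 6.51% of induced spinous cells, against 9.92% and 15.04% of fibroblast-like cells. Its level was 154 and 70.1 CPM in spinous cells, with 54.9% of the control UMIs in 3 cells, and 38.6 and 96.2 CPM in fibroblast-like cells. The part of free RNA in the spinous difference was not tested. Sprr1b was higher in the induced library in both clusters, at 2.80 and 79.4 CPM in E22 and 32.9 and 654 CPM in E24.

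**Figure D2:**
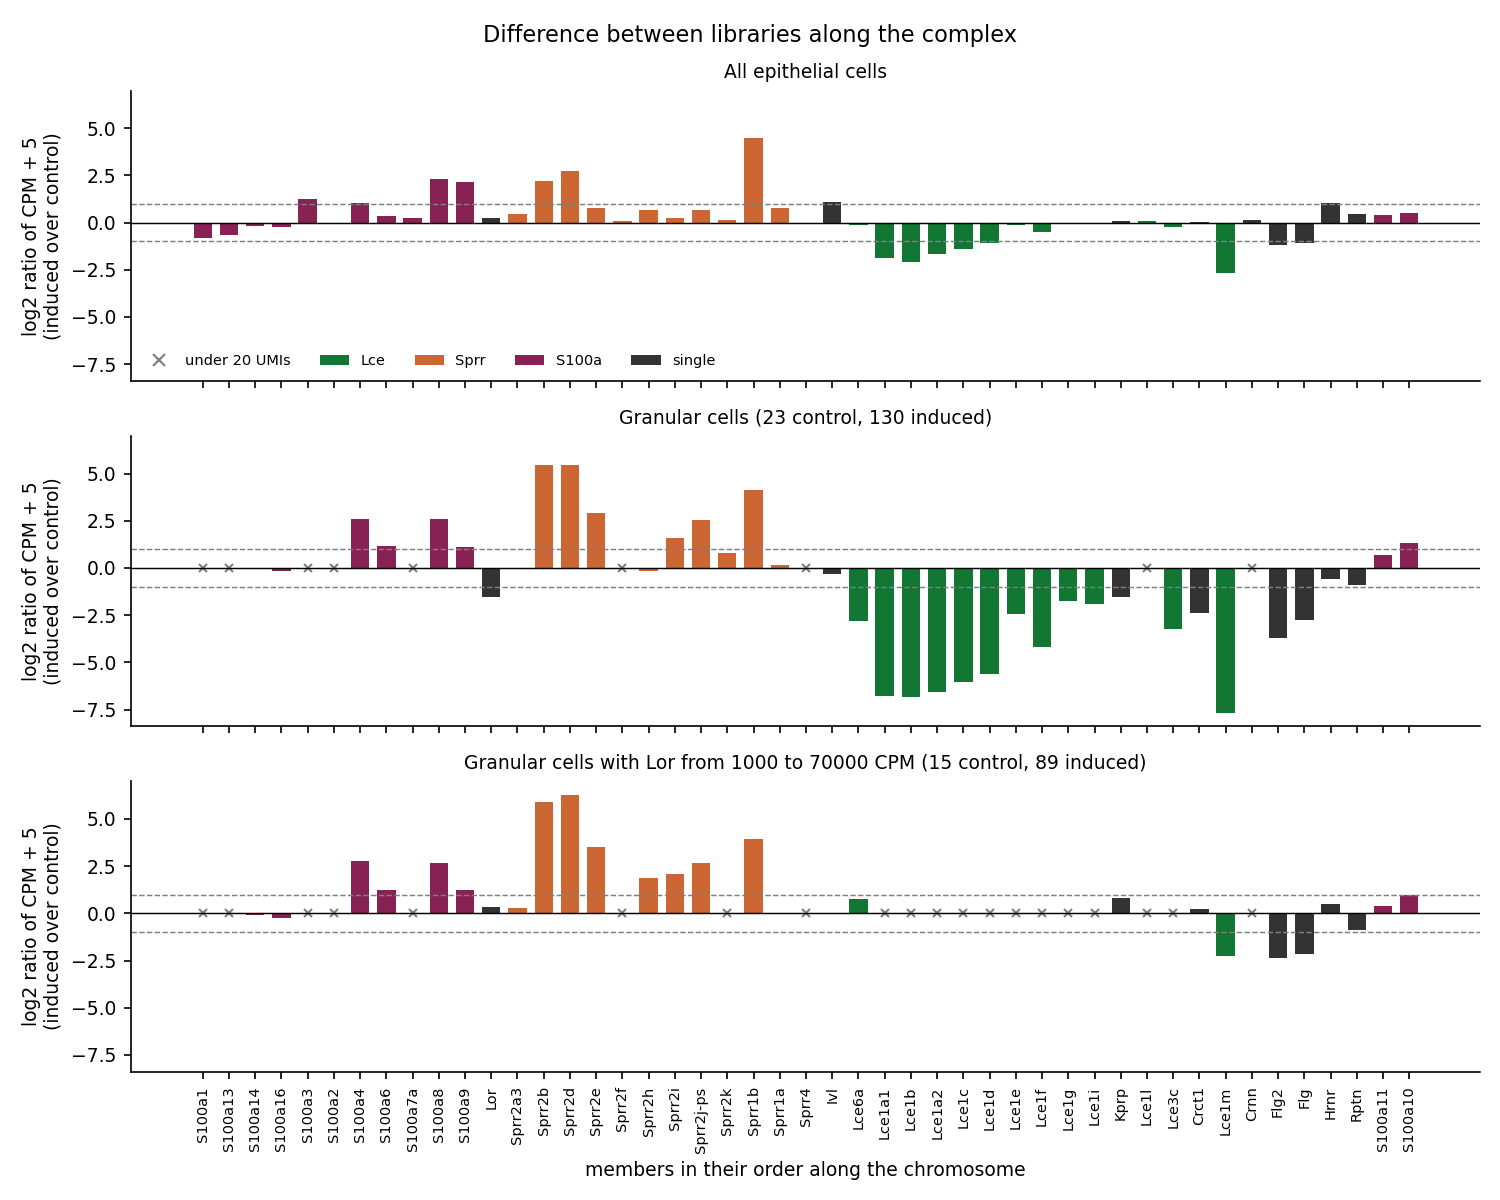
Log2 ratio of CPM plus 5, induced over control, for the 47 members in their order along chromosome 3, in all epithelial cells, granular cells and granular cells with Lor from 1000 to 70000 CPM. Dashed lines mark a 2-fold difference and crosses mark members under 20 UMIs. The Lce bars are lowest in the middle panel, where all 12 counted Lce genes pass the line, and in the lower panel 10 of those 12 fall under 20 UMIs.

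The lower Lce level rested on very few cells. The granular Lce1 genes, which encode late envelope proteins, had 7408 control and 77 induced UMIs, or 4266 and 10.5 CPM. Of the control UMIs 7346, or 99.2%, lay in 3 of the 23 cells. The other 20 control cells held 62 UMIs, or 37.4 CPM, and 7 of them had any, against 24 of 130 induced cells. The highest count in a single cell outside those 3 was 26 in the control and 24 in the induced library. After thinning, 13.6% (2.91 to 34.9) of control granular cells had an Lce1 UMI, against 0 of 130 induced cells, with an exact upper limit of 2.80% for cells at that thinned depth. The fibroblast-like cells gave 1.15% and 2.44%.

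The 3 cells were also among those above 70000 CPM of Lor, at 151096, 139313 and 104840 CPM. They had only 93.0, 57.3 and 924 CPM of Krt10, the keratin of the spinous and granular layers. In all, 6 control cells were above 70000 CPM of Lor (89107 to 151096) and no induced cell was, the highest induced cell being at 68463. Whether such cells were absent from the induced skin or only from its library cannot be told apart, which touches the Lce, Lor, Crct1 and Kprp values of the whole class. In the 6 cells the median level of Lor was 111793 CPM, of Flg 40671 CPM, of Crct1 37337 CPM and of Krt10 695 CPM, at a median depth of 38933 UMIs. None of the 6 held a Sprr1b UMI. Both the limit of 70000 CPM and the comparison without these cells were chosen after the data were seen. Without them, over all epithelial cells, the summed Lce genes had a log2 ratio of 0.43 (0.25 to 0.61) in place of -3.90.

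Single Lce genes showed the same pattern. Lce1m was 33.6 CPM in the control and 0.951 in the induced library over all epithelial cells, with 94.6% of the control UMIs in 3 cells. Lce1b was 18.8 and 0.665 CPM with 96.9% in 3 cells, and Lce1a1 was 16.9 and 0.992 CPM with 95.8%. Lce1f was 2.39 and 0.276 CPM, Lce3c 1.19 and 0.307 CPM, and Lce6a 2.12 and 1.48 CPM. Without the 6 cells the log2 ratio was 0.72 for Lce1a1 (0.20 to 1.26), 1.82 for Lce6a (1.26 to 2.42) and 1.74 for Lce3c (0.52 to 3.17). Lce1b and Lce1f turned direction too. Lce1m did not turn, and it was called lower in the Lor range used below. Over all epithelial cells, 3 control cells thus held 95.04% of the Lce1 UMIs of that library. The Lce1 genes are close copies of each other, and counts of single ones could be split between them.

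**Figure D3:**
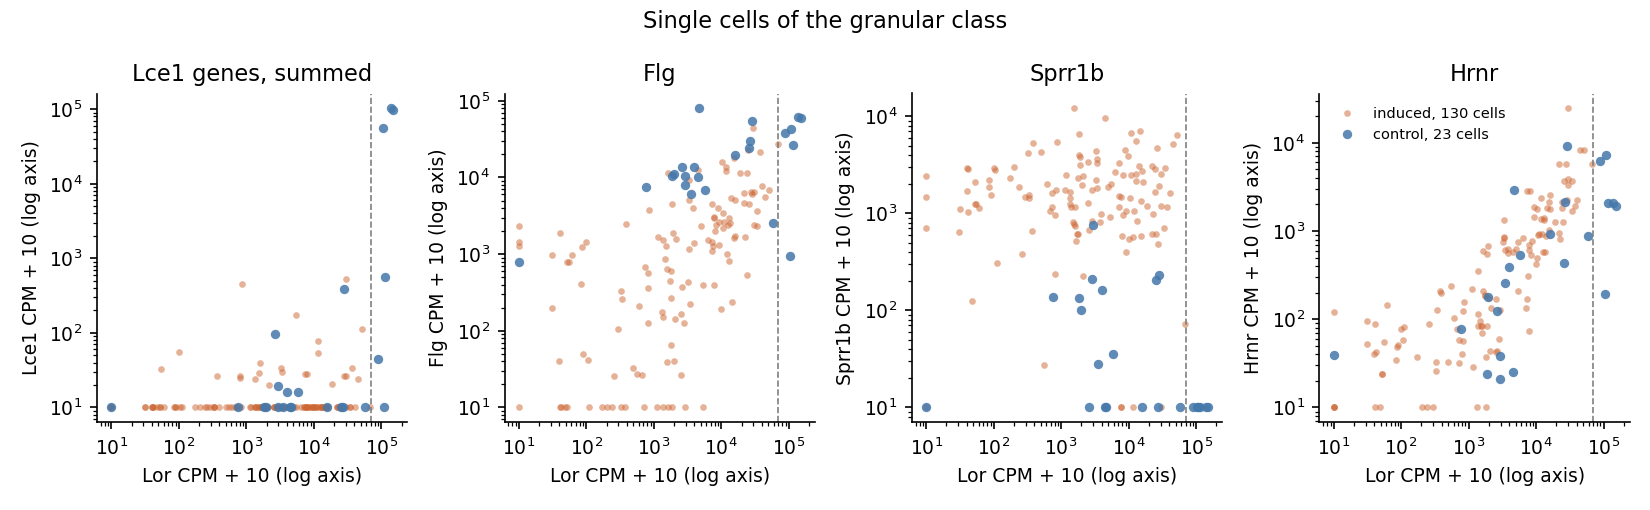
Each point is 1 granular cell, 23 control (blue) and 130 induced (orange), with its Lor level on the x axis and Lce1, Flg, Sprr1b or Hrnr on the y axis, in CPM with 10 added, on log axes. The dashed line is at 70000 CPM of Lor: 6 control cells lie to its right, 3 of them at the top of the Lce1 panel and all 6 at 0 for Sprr1b. Hrnr follows Lor along 1 band in both libraries.

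A comparison of granular cells over a Lor range held by both libraries was therefore added, from 1000 to 70000 CPM, with 15 control and 89 induced cells (median depths 73256 and 59344 UMIs). Lor sets this range, so its level there is a description: 9762 CPM in the control and 12293 in the induced library. In this range 11 of 27 members were at least 2-fold higher in the induced library (against 4.15% of 8435 genes), namely S100a4, S100a6, S100a8, S100a9, Sprr1b, Sprr2b, Sprr2d, Sprr2e, Sprr2h, Sprr2i and Sprr2j-ps. Lce1m, Flg and Flg2 were lower (3 of 27, against 6.80%), and the median gene differed by -0.16 on the log2 scale. Of the 17 lower members of the whole class, 10 Lce genes fell under 20 UMIs here and could not be called. Among the higher members Sprr2h was called here and S100a10 was not, the reverse of the whole class. Few cells lay near the limits: within 20% of the lower one there were 0 control and 5 induced cells, and within 20% of the upper one 1 of each.

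Flg, whose product bundles keratin filaments and is processed into the moisturising factor of the stratum corneum, was lower in the induced library in both granular comparisons. Over the whole class it was 19968 (19759 to 20179) and 2921 (2882 to 2960) CPM, 6.84-fold lower (6.72 to 6.95). In the Lor range it was 17109.6 and 3891 CPM, a log2 ratio of -2.14 (-2.16 to -2.11). The per-cell values overlapped. Between 1000 and 10000 CPM of Lor, Flg ran from 6082 to 79366 with a median of 10507 CPM in 10 control cells, and from 0 to 12571 with a median of 974 CPM in 52 induced cells. Between 10000 and 70000 CPM of Lor it ran from 2571 to 54536 with a median of 24392 CPM in 5 control cells, and from 226 to 43745 with a median of 5066 CPM in 37 induced cells. Within each of these wide Lor ranges, which hold few control cells, most induced cells were thus below most control cells. Barcodes outside the filters held 14.7% of the control and 6.47% of the induced Flg UMIs.

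Flg2, the neighbouring filaggrin relative, went the same way. It was 1068 (1020.1 to 1118) and 76.9 (70.7 to 83.5) CPM in granular cells, 13.9-fold lower (12.6 to 15.3). In the Lor range it was 562 and 105 CPM, but 87.0% of the control UMIs there lay in 3 cells. Hrnr, another protein of this family, did not: it was 1448 and 977 CPM over the class and 944 and 1346 CPM in the Lor range, with no 2-fold difference in either. Over all epithelial cells, where granular cells made up a larger share of the induced library, Hrnr was 34.8 and 76.4 CPM, a 2.19-fold higher level.

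Ivl, involucrin, the first scaffold protein of the envelope, was 30.3 and 70.1 CPM over all epithelial cells, but 982 and 788 CPM in granular cells and 921 and 935 CPM in the Lor range. Crct1, a cysteine-rich gene next to the Lce genes, was 4259.55 and 797 CPM in granular cells, with 58.2% of the control UMIs in 3 cells, and 937 and 1105 CPM in the Lor range. Kprp, a keratinocyte proline-rich protein, was 132 and 41.6 CPM in granular cells and 28.7 and 55.0 CPM in the range. Lor itself was 25366 and 8835 CPM over the class. With only the 6 cells left out, Crct1 was 829 and 797 CPM and Kprp 25.4 and 41.6 CPM, whereas Flg was 15833 and 2921 CPM and Flg2 501 and 76.9 CPM. The 6 cells were chosen by Lor, so its own level without them is not read.

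Rptn and Crnn, fused S100 genes that are scarce in back skin, had 62 and 283 UMIs and 10 and 70 UMIs over all epithelial cells. Of the induced Rptn UMIs 79.9% lay in 3 cells.

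Sprr1b kept its difference within the Lor range. Over the range it was 144 (124 to 166) and 2290.1 (2249 to 2331) CPM, 15.9-fold higher (13.8 to 18.5). Between 1000 and 10000 CPM of Lor its median was 58.2 CPM in 10 control cells and 1588 CPM in 52 induced cells. Between 10000 and 70000 CPM the medians were 0 in 5 control and 1616 in 37 induced cells. The control cells with a Sprr1b UMI did not exceed 743 CPM, and 2 of the 52 and 2 of the 37 induced cells had none. Fibroblast markers summed to 275 CPM in control and 11.5 CPM in induced granular cells, with 359 of the 477 control UMIs in 1 cell; their part in these differences was not tested.

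Members also differed in clusters of the hair follicle. The upper follicle, the funnel above the sebaceous gland, consisted of clusters E14 (85 control and 130 induced cells), E16 (99 and 108) and E34 (45 and 46). In E14, Sprr1b was 47.9 and 642 CPM, with a UMI in 15 of 85 and 96 of 130 cells. In E16 it had 0 and 26 UMIs, and in E34 it was 17.8 and 22.0 CPM. Sprr1a in E14 was 1371 and 764 CPM, the reverse order. After thinning, 1.77% of control and 21.1% (16.5 to 26.4) of induced upper follicle cells had a Sprr1b UMI, above the 3.25% of induced fibroblast-like cells.

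In E34, Sprr1a was 2204 and 6666 CPM and Crct1 247 and 3451 CPM, the latter with 80.1% of the induced UMIs in 3 cells. Flg2 in E34 had 1 control and 176 induced UMIs, 66.5% of the latter in 3 cells. In the companion layer, which lies between the outer and inner root sheaths, Sprr1a was 17.8 and 575 CPM, with 78.5% of the induced UMIs in 3 cells. Crct1 and Flg2 in E34 and Sprr1a in the companion layer thus rest on a handful of induced cells. For Sprr1a in E34, 54.5% of the control and 48.5% of the induced UMIs lay in 3 cells. Sprr1b in E14 is spread more widely, with 25.03% of its induced UMIs in 3 cells.

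S100a3 was found chiefly in the matrix and shaft class, which holds cells of the growing hair. Cluster E26 (70 and 81 cells) had 363 and 1492 CPM and cluster E35 (10 and 21 cells) 685 and 1138 CPM. In E26, 92.3% of the induced and 81.5% of the control UMIs lay in 3 cells. S100a8 in E14 was 36.0 and 11.1 CPM, lower in the induced library, with 79.3% and 78.3% of the UMIs in 3 cells.

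**Figure D4:**
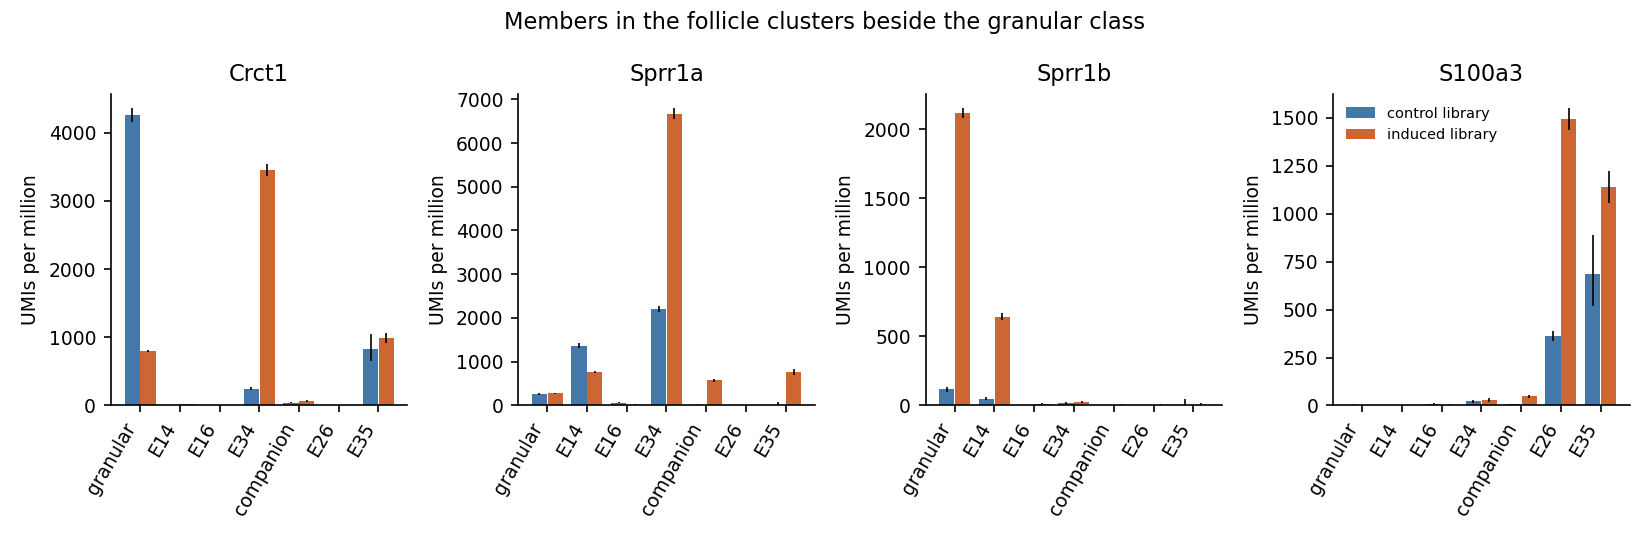
CPM of Crct1, Sprr1a, Sprr1b and S100a3 in the granular class, the upper follicle clusters E14, E16 and E34, the companion layer and the matrix and shaft clusters E26 and E35, as bars from 0 with exact 95% counting intervals. Crct1 is 4259.55 CPM in control granular cells and 3451 in induced E34 cells, Sprr1b is higher in granular and E14 cells than in the other clusters drawn, and S100a3 in E26 and E35.

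The genes that act with the complex were read from lists chosen with earlier results of these data known. Their counts stand against the shares of all genes given above: 1.52% higher and 2.44% lower over all epithelial cells, 1.72% and 2.18% in basal, 3.47% and 5.05% in granular cells, and 4.15% and 6.80% in the Lor range. Among 4 alarm keratins, made by keratinocytes after injury, Krt6a, Krt6b and Krt16 were higher over all epithelial cells (67.4 and 309, 0.797 and 66.1, 106 and 733 CPM) and Krt17 was not called. In granular cells Krt6a had 1.15 control and 1269 induced CPM. Among 5 differentiation keratins, Krt77 (207 and 554 CPM) and Krt78 (7.54 and 69.6 CPM) were higher over all epithelial cells and none was lower. In basal cells Krt1 (3148 and 546 CPM), Krt10 (1986 and 372 CPM) and Krt77 were lower, in a class whose clusters E7 and E0 the libraries filled unequally.

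Of 11 genes for cross-linking and processing, Tgm1, the transglutaminase of the envelope, was 10.7 and 29.0 CPM over all epithelial cells, and Asprv1, a protease that cuts profilaggrin, was 362 and 815 CPM. No gene of that list was lower there. In granular cells Tgm3 and Pof1b were higher, and Casp14 (1015 and 288 CPM), Klk5 (1077 and 492 CPM) and Klk7 (2479 and 882 CPM) were lower. Casp14, the caspase that breaks down filaggrin, was 907 and 280.4 CPM in the Lor range too, where Klk7 was also lower and Klk5 was not. Of 11 envelope and corneodesmosome partners, Cdsn, Cnfn and Dsc1 were higher over all epithelial cells, where granular cells were a larger share of the induced library, and none was lower. In granular cells Csta1, a cystatin, was lower (1550.2 and 587 CPM), as it was in spinous cells (999 and 154 CPM). It was not called in the Lor range (1183 and 723 CPM). Cdsn, Cnfn and Dsc1 were higher in spinous cells, where 2.91% of all genes were higher and 2.74% lower. Krt6b, Krt77, Cdsn and Cnfn were among the 10 leading genes of the granular cluster, so their levels within it are not given as results. Casp14, Klk7 and Tgm3 were among the markers that named the granular class, so their levels there are not independent of its name. Tgm3 was not among the raised markers in the control.

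Among 12 regulators of differentiation, Grhl3 was higher (9.75 and 25.4 CPM) and Cebpa lower (173 and 65.1 CPM) over all epithelial cells. Of 7 AP-1 subunits 0 were higher, and Fosb was lower, at 200.1 and 74.6 CPM over all epithelial cells and 203 and 92.2 CPM in granular cells. In basal cells 3 of the 7 were lower, Fos (2496 and 1052 CPM), Fosb (349 and 52.9 CPM) and Junb (1344 and 568 CPM), against 2.18% of all genes. Of 11 NRF2 targets, Gclc and Gsta4 were lower and 0 higher over all epithelial cells, while Slc7a11 was higher in granular cells (2.88 and 30.6 CPM). Txnrd1 (29.4 and 5.71 CPM) and Hmox1 (99.6 and 14.7 CPM) were lower in granular cells, and neither was called in the Lor range. Of 6 S100 partners and receptors, none passed in either direction over all epithelial cells.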

How the data were processed

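The authors deposited, for each of the 2 libraries, a matrix of raw UMI counts, genes by barcodes. Cell Ranger 6.0.0 and the build mm10 are named in the submitters' processing notes, and the deposited counts are not normalized. Members and gene lists were chosen with earlier results of these data known, and classes rebuilt from markers may differ from the study's own.

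Barcodes needed at least 1000 UMIs, 500 genes and under 15% mitochondrial UMIs. Scrublet (scanpy 1.11.5) marked 3 and 1 barcodes by its own limit, which was not usable. The highest 7% of its scores per library were therefore removed (362 and 368). Clustering (scikit-learn 1.9.0, leidenalg 0.10.2) left out the members. It used 30 principal components of 2000 variable, library-centred genes, 8 neighbours per library and resolution 2.0 for 36 epithelial clusters, of which 1 came almost wholly from 1 library. A name needed at least 3 markers raised 1.5-fold. These thresholds, the balanced neighbours and the Lor limits were set after the data were seen. Unnamed cells were 553 control and 730 induced.

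UMIs were summed per class and library as counts-per-million (CPM, over all genes), with exact Poisson intervals, exact conditional binomial intervals of ratios and Clopper-Pearson intervals of shares (scipy 1.17.1). A member was called at a 2-fold difference of CPM plus 5 with an interval that excludes 1, given at least 20 UMIs over both libraries. The comparison was tested on simulated Poisson counts. These lack the uneven spread of UMIs between cells seen here, so the simulation does not bear on that spread. Named were all single genes and, in each of Lce, Sprr and S100a among members with 100 UMIs, the 3 highest and 3 lowest log2 ratios of CPM plus 5 and the 3 with most UMIs; further names come from counts past the measure. UTR and copy checks used the GENCODE vM21 annotation, and promoters and microRNA RefSeq.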

Additional observations from a re-analysis of the deposited data

Results flagged for a closer look

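For 4 members the difference between the libraries had opposite directions in separate cell classes, each past a 2-fold measure. Whether the classes differed in this was not tested. On the log2 scale of CPM plus 5, S100a8 was 2.59 in granular cells (68.5 control and 438 induced CPM) and -1.13 in the upper follicle (19.0 and 5.99 CPM). Crct1 was 3.10 in the upper follicle (77.3 and 702 CPM) and -3.54 in sebaceous cells (184 and 11.2 CPM), where only 22 induced cells were found against 401 control cells and 87.0% of the control UMIs lay in 3 cells. Flg2 was 2.41 in the upper follicle (0.181 and 22.5 CPM) and -3.71 in granular cells (1068 and 76.9 CPM). Flg was 1.39 in the upper follicle (21.3 and 63.8 CPM) and -4.25 in spinous cells (407 and 16.6 CPM). The upper follicle values of Flg2 rest on 1 control and 184 induced UMIs, 63.6% of the latter in 3 cells. As given above, other differences here also rest on few cells. In the library with the higher level, most S100a8 UMIs of granular cells and of E14 lay in 3 cells. The same held for Crct1 in E34 and Flg in E24. The thinned share of granular cells with S100a8 or S100a9 did not follow the CPM.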

How the results depend on the processing

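No paired analysis was possible because there was 1 library per group. Of the log2 ratios over all epithelial cells, the Lce ratio of -3.90 was -3.56 with doublets kept, -4.30 under the stricter cell filter, -4.14 with a member minimum of 100 UMIs and -1.31 as the mean of per-cell CPM. It was 0.43 without the cells above 70000 CPM of Lor and 0.23 without the 10 cells of each library with the most Lce UMIs. The ratio of the single genes, -0.10, was 0.19 with doublets kept, -0.027 under the stricter filter, -0.21 under the looser mitochondrial filter, 0.31 as the per-cell mean and 0.0084 when scaled to the median gene. It was 0.95 without the high Lor cells and 1.46 without its 10 highest cells per library. These 2 values are not read, since the first leaves out control cells chosen by a gene of the sum and the second a larger part of the 23 control than of the 130 induced granular cells. The S100a ratio of 0.22 ran from 0.056 (per-cell mean) over 0.20 (without 10 cells) and 0.24 (doublets kept) to 0.33 (scaled), and the Sprr ratio of 1.98 from 1.86 over 2.10 and 2.09 to 2.25, for the per-cell mean, doublets kept, scaled and without 10 cells. Members higher over all epithelial cells were 9, and 4 with 20 CPM added. Members lower there were 8, but 5 with doublets kept, 2 as the per-cell mean, 2 with 20 CPM added and 0 without the high Lor cells. Members lower in granular cells were 17, but 4 without the high Lor cells and 3 from 1000 to 70000 CPM of Lor.

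Without thinning, the shares of granular cells with a UMI were 43.5% for control Lce1, 18.5% for induced Lce1, 43.5% and 96.2% for control and induced Sprr1b, 69.2% for induced Sprr2 and 39.2% for induced S100a8 or S100a9. Of the recomputed subfamily ratios over all epithelial cells, member counts and granular shares, 68 stayed the same, 27 moved and 7 turned direction. For named genes and granular subfamily ratios, 483 stayed the same, 168 moved and 16 turned direction. Staying the same meant lying within the counting interval, or within a ratio of 1.5 for member counts. A turn was counted only where the main interval excluded equality, and other turns were counted as moved. Of the 16, those in granular cells without the high Lor cells were 0.22 for Hrnr, 0.71 for Kprp, 1.31 for Lce6a and 0.022 for Lor. The Lor values here and next are counted in the 16 but are fixed by the choice of cells. From 1000 to 70000 CPM of Lor they were 0.24 for Crct1, 0.51 for Hrnr, 0.022 for Ivl, 0.94 for Kprp, 1.53 for Lce6a and 0.33 for Lor. Over all epithelial cells without the high Lor cells they were 0.72 for Lce1a1, 0.20 for Lce1b, 1.07 for Lce1f, 1.74 for Lce3c and 1.82 for Lce6a. S100a6 over all epithelial cells was -0.065 as the per-cell mean. The settings that leave out cells were chosen after the data were seen. The small number of control granular cells, 23, limits the precision there, and the cause of these shifts beyond the cells left out was not tested.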
